A study of Mus musculus with 4 samples.

Results

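The collagen (COL1) and STIFF cultures of mouse mammary organoids were compared with each other inside the single droplet channel in which their cells had been pooled. COL1 is the labels' name for the collagen condition and STIFF for the stiff one, and the make-up and stiffness of both matrices are not given in the sources used here. The organoids were grown from fat pads, freed of lymph nodes, of virgin mice aged 8 to 9 weeks, and strain and genotype are not given in the sources used here. The series held 4 culture conditions in 2 pools, and the other pool (MATR and SOFT) is used here only in 1 alternative clustering. Cells of each culture carried a hashtag antibody, which binds the cell surface and holds a readable oligonucleotide, and RNA was read as unique molecule identifiers (UMIs) per gene and cell. Each condition was 1 culture, which allows no test of a difference, and no p-value is given. The study's title asks how collagen signalling and matrix stiffness act on the potency of glandular epithelial stem cells.

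Barcodes entered at 1000 or more UMIs from 500 or more genes, unless over 15% of the UMIs were mitochondrial, and their 2 hashtag counts were divided by background levels of 32 and 176. A barcode was called COL1 or STIFF when that scaled tag was at least 2 times the other, and dropped as double when both were at least 4. This gave 1780 COL1 and 5381 STIFF cells, together 7161 of the 17513 kept barcodes of both pools. The pool had 10615 deposited barcodes with 133608252 UMIs, of which 9568 barcodes were kept, and 1987 of these stayed unassigned, at a median of 1606 UMIs, and 420 were double. COL1 cells had a median of 9935 UMIs and 23372235 in all, and STIFF cells a median of 11920 and 85143520 in all. Just inside the tag threshold, at a ratio of 2 to 2.5, lay 131 COL1 and 337 STIFF cells, and just outside it, at 1.5 to 2, 204 barcodes with the COL1 tag ahead and 521 with the STIFF tag ahead. The sample labels do not state which tag marked which culture, and give the word stiff for the whole pool. The pairing follows the names of the deposited matrices, and if the tags were exchanged each ratio would be inverted. Of the deposited barcodes, 22 also occurred in the other pool.

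The mammary duct has an outer basal layer of contractile myoepithelial cells with keratins 5 and 14, and an inner luminal layer with keratins 8 and 18. Luminal cells fall into a hormone receptor-positive (HR-positive) branch, which senses oestrogen and progesterone, and a receptor-negative (HR-negative) branch, which holds the progenitors of milk-secreting cells. Cells bind collagen through integrins that pair the beta 1 chain with a collagen-binding alpha chain, and through discoidin domain receptors. Cells short of oxygen stabilise hypoxia-inducible transcription factors (HIF), which bind a short DNA element and raise genes for glucose uptake, pH control, vessel growth and the prolyl hydroxylases that return HIF to degradation.

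Hypoxia-induced genes were the list with the most members on the COL1 side in basal-like and fibroblast-like cells, so the promoters of 3 of them are printed with the core of the HIF element in capitals. The cores searched were ACGTG and GCGTG, which read CACGT and CACGC on the other strand. Adm encodes the vasodilator peptide adrenomedullin, Egln3 a prolyl hydroxylase that marks HIF for degradation, and Car9 a carbonic anhydrase of the cell surface. The sequences are the 250 bases before the gene start in RefSeq, build GRCm38.p6, 5′ to 3′ on the strand of the gene, which is plus for Adm (chr7:110627407-110627656) and Car9 (chr4:43506776-43507025) and minus for Egln3 (chr12:54203875-54204124).
Adm: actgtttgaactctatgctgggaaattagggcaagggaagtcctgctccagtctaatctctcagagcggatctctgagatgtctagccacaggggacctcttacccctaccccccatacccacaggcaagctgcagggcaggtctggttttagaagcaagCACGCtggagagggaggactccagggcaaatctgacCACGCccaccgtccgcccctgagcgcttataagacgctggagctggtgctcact
Egln3: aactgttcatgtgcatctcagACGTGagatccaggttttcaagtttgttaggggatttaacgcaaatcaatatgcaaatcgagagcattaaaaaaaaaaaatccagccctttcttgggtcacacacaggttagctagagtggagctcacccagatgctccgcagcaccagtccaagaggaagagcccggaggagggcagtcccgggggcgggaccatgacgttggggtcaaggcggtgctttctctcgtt
Car9: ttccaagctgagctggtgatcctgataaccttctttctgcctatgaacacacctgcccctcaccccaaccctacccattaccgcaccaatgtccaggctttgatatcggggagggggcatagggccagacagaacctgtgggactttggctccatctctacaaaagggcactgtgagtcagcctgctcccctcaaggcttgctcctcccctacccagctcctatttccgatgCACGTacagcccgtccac
Adm held 2 cores in this window, Egln3 1 and Car9 1. Of the 19 genes of the list 17 had a window in the table, and 16 of these held a core. One was held by 41.5% of the 27025 genes with a window, and by 38.6% of the 32851 windows, counted with 1 chromosome left out. The list was put together from genes known as hypoxia-induced, so its share with a core is not a result of these data. A match describes these letters only, and no binding was measured.

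The barcodes were clustered without use of the tags, and 5 classes named from marker genes had at least 100 cells of both cultures. The basal-like class was led by Acta2, Tagln and Krt5, which encode smooth muscle actin, transgelin and keratin 5. Clusters 3, 4 and 11 were HR-positive luminal-like, and of these cluster 4 was led by Sprr2f, Klk1b27 and Calca and cluster 11 by Reg3b, Pwwp3b and Areg. HR-negative luminal-like cells were led by Saa1, Saa2 and the milk protein gene Csn3. Fibroblast-like cells were led by Col1a2, Crabp1 and Col1a1 and also carried 6 of 7 pericyte markers, and the clustering did not part these cell types. Macrophage-like cells were led by Lyz2, C1qa and Cxcl2. Cluster 7, led by Krt17, Tagln and Ankrd1, carried basal and HR-negative markers side by side over all its cells and stayed unnamed. It is described by its number, was added after its values were seen, and with 89 COL1 cells lay under the minimum of 100. Endothelial-like cells (11 and 8) were too few to compare, and the remaining clusters were of low depth, cycling or of high doublet score. Low-depth clusters 0 and 1 had macrophage markers in the lead and are not part of the macrophage-like class. Cluster 1, with 11 of 12 such markers, held 0 COL1 and 36 STIFF cells. Cluster 0, with 8 of 12 and also 6 fibroblast markers, held 123 and 213. The markers of dendritic cells, B cells, adipocytes and erythroid cells were each below 5 CPM (UMIs scaled to a total of 1000000 per culture and class) in both cultures over all cells.

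Fibroblast-like and macrophage-like cells made up a larger share of COL1 than of STIFF. Fibroblast-like cells were 183 of 1780 in COL1, 10.3% (8.91 to 11.8) with the exact Clopper-Pearson 95% interval in brackets, and 301 of 5381 in STIFF, 5.59% (4.99 to 6.24). In COL1 7.98% (6.76 to 9.33) of the cells were macrophage-like, and in STIFF 4.70% (4.15 to 5.30). The low-depth clusters with macrophage markers are not counted in this class. HR-negative cells had a smaller share of COL1, 17.9% (16.2 to 19.8), than of STIFF, 22.5% (21.4 to 23.6), while the intervals overlapped for basal-like cells, 12.5% (11 to 14.2) and 14.3% (13.3 to 15.2), and for HR-positive cells, 30.6% (28.5 to 32.8) and 29.6% (28.4 to 30.8). Cluster 7 held 89 COL1 cells, 5.0% (4.03 to 6.12), and 183 STIFF cells, 3.40% (2.93 to 3.92), and the cycling cluster 17 COL1 and 150 STIFF cells. All intervals here cover counting error only, not the spread between cultures. Those given below for ratios of CPM treat each UMI as independent, and so leave out the spread between cells too.

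**Figure D1:**
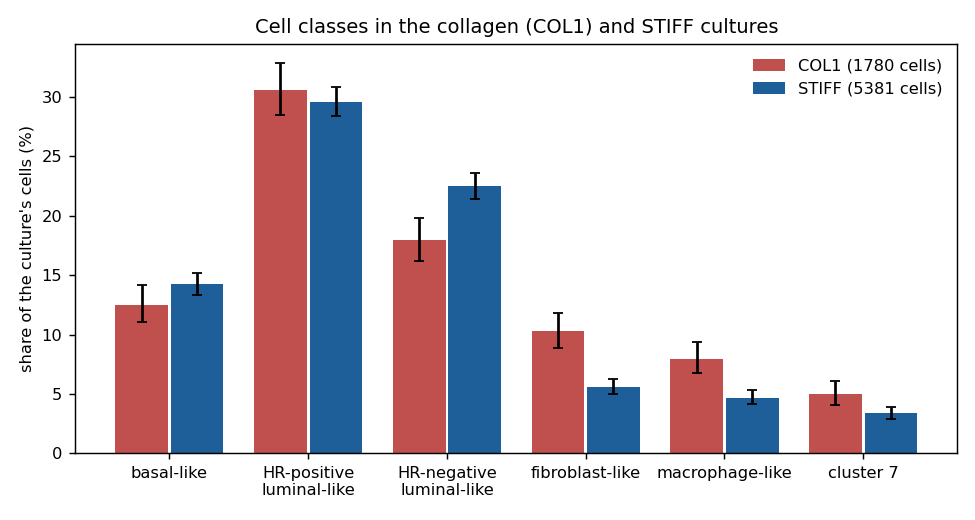
Share of each culture's cells, in percent, in 5 marker-named classes and cluster 7, for COL1 (1780 cells) and STIFF (5381 cells), with exact 95% intervals for counting error. Fibroblast-like and macrophage-like cells stand at 10.3% and 7.98% of COL1 against 5.59% and 4.70% of STIFF.

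These shares moved with the way tags were called. Under HTODemux, a caller that sets a cutoff per tag, the share in COL1 over that in STIFF was 1.66 for HR-negative cells in place of 0.797, 0.967 for macrophage-like cells in place of 1.70, and 2.41 for basal-like cells in place of 0.879. HTODemux called 1438 of the COL1 and 2443 of the STIFF cells alike and moved 0 from one culture to the other. Of the barcodes in each class, 17.7% of HR-negative and 1.25% of macrophage-like ones had no assigned tag.

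Over all cells the genes furthest to the COL1 side were mostly those of macrophages and stroma. A gene was counted as higher or lower at 1.5-fold or more, among genes at 5 CPM or more in 1 culture. Of 10458 such genes 367 were higher in COL1 (3.51%) and 155 lower (1.48%). Pf4, the chemokine platelet factor 4, was at 150.3 and 26.6 CPM in COL1 and STIFF (5.66-fold, 5.36 to 5.97 as the exact 95% interval), with levels always given in this order. Mmp13, a collagenase, was at 75.3 and 17.0 CPM (4.42-fold, 4.12 to 4.74), with 83.8% of its COL1 UMIs in 10 cells. The 12 highest genes also held Fabp4, Rarres2, F13a1, Cck, Lum, Cxcl2 and Cpxm1, with the hypoxia-induced Ndrg1 (256 and 121 CPM) and Ero1l (238 and 114 CPM), from 2.08-fold for Cxcl2 to 3.96-fold for F13a1. Of the COL1 UMIs of Cck 61.5% lay in 10 cells. A Cck UMI was found in 8.93% of COL1 and 13.2% of STIFF cells, at median depths of 9935 and 11920 UMIs. With cells thinned to the same depth, as described below, the shares were 4.17% and 4.17%. This thinning left out 151 COL1 and 207 STIFF cells. Fabp4, with 57.3% of its COL1 UMIs in 10 cells, was also the first leading gene of the endothelial-like cells (11 and 8), whose part was not tested. All 11 measured macrophage markers were higher, with summed levels of 4747 and 2609 CPM, and 6 of 8 measured fibroblast markers, with 2669 and 1681 CPM. In such sums more cells of a type and more RNA per cell cannot be told apart. With each named class given the same weight in both cultures 191 genes were higher, and the log2 ratio of Cxcl2 went from 1.02 to 0.49, and to 0.56 under HTODemux.

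On the STIFF side over all cells stood kallikrein, glutathione peroxidase, defensin and basal keratin genes. Klk1b27, a kallikrein serine protease, was at 13.1 and 132 CPM (10.1-fold lower, 9.0 to 11.3) and Gpx3, a secreted glutathione peroxidase, at 185 and 612 CPM (3.30-fold lower, 3.20 to 3.41). Defb14, an epithelial beta-defensin, was at 17.3 and 66.8 CPM (3.86-fold lower, 3.49 to 4.28). The growth factor gene Ptn followed at 57.5 and 155 CPM (2.69-fold lower, 2.54 to 2.85), and Krt17, Wfdc18, Krt14, Krt5, Pdlim3, Igfbp5, Mgp and Tspan8 completed the 12 lowest, from 2.28-fold lower for Krt17 to 1.65-fold for Igfbp5. Several of these rested on the tag caller or on the mix of classes. Under HTODemux the log2 ratio of Mgp turned from -0.71 to 0.21, and those of Krt5 and Krt14 went from -0.86 to -0.12 and from -0.87 to -0.35. These log2 ratios have 10 CPM added to each side, which makes a fold smaller, so the plain ratio of CPM can still pass 1.5-fold. So measured, Pdlim3, Igfbp5 and Tspan8 were short of 1.5-fold under HTODemux (-0.57, -0.43 and -0.57). They were also short with the class mix held fixed (-0.57, -0.54 and -0.47). With that mix Krt17 went from -1.09 to -0.31 and Wfdc18 from -0.88 to -0.57. Krt8, at 1715 and 2249 CPM, and Krt18, at 2368 and 2731, did not reach 1.5-fold.

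Over all cells few genes for collagen receptors differed. Of 10 listed, 6 were measured over all cells, 1 was higher and 0 lower. That gene was Mrc2, an endocytic collagen receptor, at 19.6 and 9.76 CPM (2.0-fold, 1.78 to 2.25), and within fibroblast-like cells it was at 184 and 127 CPM (1.45-fold, 1.29 to 1.63), short of 1.5-fold. Itgb1, the shared beta 1 chain, was at 402 and 346 CPM, and the collagen-binding alpha chains Itga1 at 21.2 and 19.0, Itga2 at 14.1 and 12 and Itga11 at 5.43 and 3.75. Ddr1, the epithelial discoidin domain receptor, was at 38.5 and 40.2 CPM, and Ddr2, Itga10, Lair1 and Cd36 stayed below 5 CPM. Within classes, Itga1 was higher in COL1 basal-like cells, at 49.8 and 29.7 CPM (1.67-fold, 1.32 to 2.12), and in fibroblast-like cells Itga11 was higher, at 37.7 and 20.9 CPM (1.80-fold, 1.36 to 2.38), and Ddr1 lower, at 10.04 and 16.1 CPM. In macrophage-like cells 1 of 6 measured receptors was higher, Itga1 at 10.4 and 6.93 CPM from 24 and 39 UMIs, and 3 were lower, Itga2 with 11 and 50, Ddr1 with 21 and 122 and the scavenger receptor gene Cd36 with 12 and 94 UMIs (5.21 and 16.7 CPM), in a class where 7 of 8 pan-luminal markers were lower too, and their part was not tested. In HR-positive and HR-negative cells and cluster 7, 0 of the 3 measured in each passed 1.5-fold. Genes that cut, cross-link or protect matrix stood on the COL1 side over all cells, with 10 of 23 measured members higher and 0 lower. After Mmp13 came Lox, which cross-links collagen, at 74.1 and 33.8 CPM (2.2-fold, 2.07 to 2.33), and at the other end stood the inhibitors Timp3, at 85.3 and 114 CPM, and Serpine2, at 99.8 and 118. In these levels over all cells too, more cells of a type and more RNA per cell cannot be told apart. Within fibroblast-like cells 5 of 24 measured members were higher and 2 lower.

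Hypoxia-induced genes stood on the COL1 side in basal-like cells, and Adm was the gene furthest apart there. In this class 858 of 10009 measured genes were higher (8.57%) and 683 lower (6.82%). Of the 19 hypoxia genes 14 were higher and 0 lower, with a median log2 ratio of 0.78 against 0.00 over all measured genes, where log2 ratios have 10 CPM added to each side. Adm was at 111 and 8.99 CPM (12.3-fold, 9.43 to 16.3), from 236 and 71 UMIs, with 40.3% of the COL1 UMIs in 10 cells. To compare cells at one depth each was thinned to 2000 UMIs, which left out 7 COL1 and 4 STIFF cells. An Adm UMI was then found in 13.9% of COL1 and 1.68% of STIFF basal-like cells (30.5% and 5.35% unthinned, at median depths of 6984 and 8679 UMIs). Among the other 4 classes the one lowest in Adm held 2.48% in COL1 (macrophage-like) and 2.07% in STIFF (HR-negative). The STIFF share in basal-like cells lay below that and is read as background, so the fold of Adm sets its COL1 level against a background level.

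The other members in basal-like cells are given by their roles. Egln3, the HIF prolyl hydroxylase, was at 154 and 38.2 CPM (4.03-fold, 3.44 to 4.73), and its relative Egln1 at 158 and 88.0 CPM. Vegfa, the vessel growth factor, was at 344 and 113 CPM (3.05-fold, 2.76 to 3.36). P4ha2, which hydroxylates prolines of collagen chains, was at 56.4 and 14.4 CPM (3.91-fold, 3.0 to 5.10), and P4ha1, the other such subunit in the list, at 156 and 114, short of 1.5-fold. Ero1l, an oxidase of the endoplasmic reticulum that serves protein folding, was at 173 and 51.8 CPM (3.34-fold, 2.89 to 3.86). Genes of stress and metabolism followed, with Ndrg1 at 466 and 183 CPM (2.54-fold, 2.34 to 2.76), Car9 at 137 and 62.0 and the glucose transporter gene Slc2a1 at 204 and 113. Bnip3, of mitophagy, was at 219 and 115 CPM and Ddit4, an inhibitor of mTOR, at 151 and 85.6, while Kdm3a, a histone demethylase, at 18.8 and 20.5 CPM, and Pdk1, which holds pyruvate back from mitochondria, at 21.6 and 18.5, had the lowest ratios. Glycolysis genes were higher for 3 of 16 and lower for 0, from Slc16a3, the lactate exporter (90.2 and 45.3 CPM), and Pfkfb3 (25.8 and 12.3 CPM) to Ldha (930.4 and 861 CPM) and Eno1 (587 and 586 CPM).

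Fibroblast-like cells and cluster 7 showed the same list on the COL1 side. In fibroblast-like cells 692 of 10266 genes were higher (6.74%) and 1218 lower (11.9%), and 13 of 19 hypoxia genes were higher and 0 lower, with a median of 0.70 against -0.06. Adm was at 157 and 39.0 CPM there (4.02-fold, 3.41 to 4.75) and Ero1l at 412 and 159 (2.58-fold, 2.36 to 2.83), while Bhlhe40, a transcription factor gene, at 148 and 125, and Ak4, an adenylate kinase, at 18.0 and 14.2, were at the low end. In cluster 7, 1116 of 10174 genes were higher (11%) and 1401 lower (13.8%), and of the hypoxia genes 12 of 19 were higher and 0 lower. Ndrg1 at 173 and 44.3 CPM (3.90-fold, 3.13 to 4.85) and Car9 at 115 and 27.9 CPM (4.14-fold, 3.15 to 5.44) led there, and Higd1a at 190.3 and 212 and P4ha2 at 40.6 and 53 were lowest.

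In the luminal and macrophage-like classes few members passed 1.5-fold. HR-positive cells had 334 of 9668 genes higher (3.45%) and 275 lower (2.84%), and 4 of 18 measured hypoxia genes were higher and 0 lower. They were Ndrg1 (369 and 122 CPM, 3.03-fold, 2.87 to 3.20), Ero1l (414 and 174 CPM, 2.38-fold, 2.26 to 2.5), Ddit4 and Egln3, whereas Higd1a, a mitochondrial protein gene, was at 577 and 645 and Adm at 41.9 and 48.2. HR-negative cells had 175 of 9655 genes higher (1.81%) and 246 lower (2.55%), and 2 of 19 hypoxia genes higher, Ddit4 (104 and 50.2 CPM, 2.06-fold, 1.84 to 2.31) and Adm (16.5 and 10.3 CPM), and 0 lower. Adm was near background here, since in COL1 the class lowest in it, macrophage-like, held 12.2 CPM, and in STIFF HR-negative cells were the lowest class used above. Ndrg1, at 163 and 119 CPM, stayed short of 1.5-fold there, and Slc2a1, at 58.7 and 56.7, and Kdm3a, at 23.5 and 25.6, had the lowest ratios. Macrophage-like cells had 555 of 10090 genes higher (5.50%) and 1630 lower (16.2%), and 4 of 19 hypoxia genes higher, namely Egln3 (90.3 and 36.6 CPM), Ndrg1 (95.6 and 51.7 CPM), Ero1l and Car9, and 2 lower, Bhlhe40 (69.9 and 107 CPM) and Ak4, with Higd1a at 175 and 258. Egln3, Ero1l and Ndrg1 were each higher in 5 of the 6 groups, all but HR-negative cells, and Higd1a and Kdm3a in 0. Whether the groups differ from each other in this list was not tested. Under the alternatives tried the list's median lay between 0.73 and 0.88 in basal-like, 0.68 and 0.82 in fibroblast-like, and 0.07 and 0.34 in HR-negative cells.

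**Figure D2:**
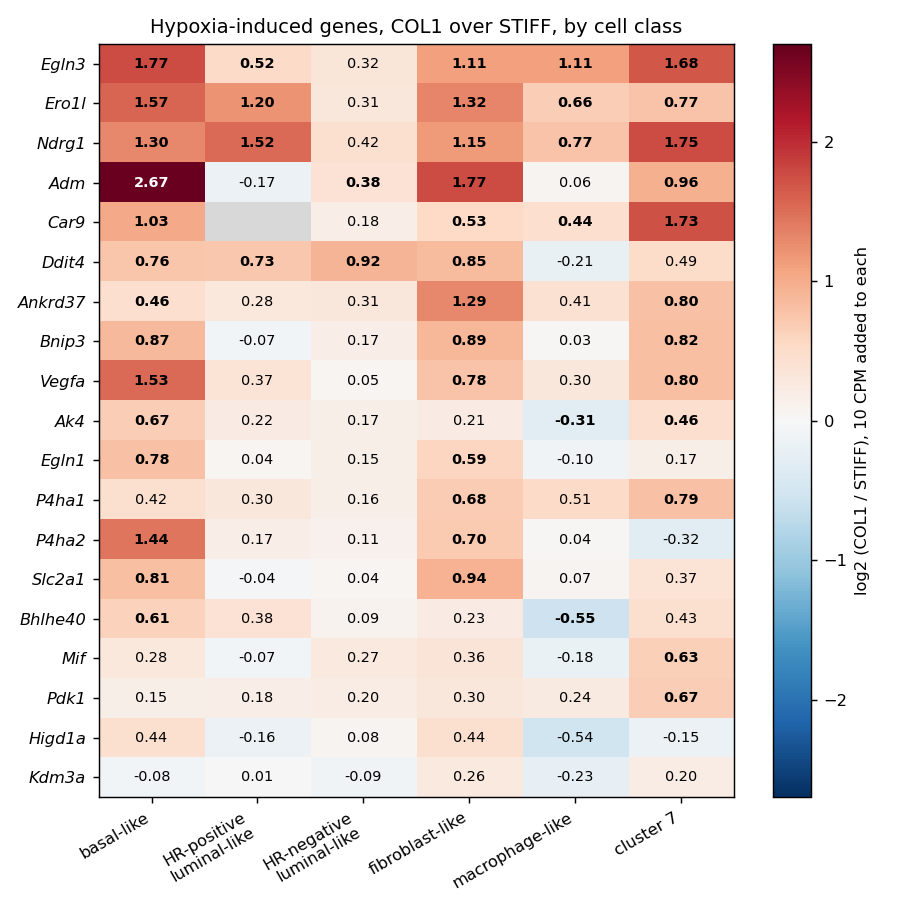
Log2 ratio of COL1 over STIFF, 10 CPM added to each side, for 19 hypoxia-induced genes (lines) in 5 classes and cluster 7 (columns). Bold numbers are at least 1.5-fold and grey cells are below 5 CPM in both cultures, and basal-like, fibroblast-like and cluster 7 cells have 14, 13 and 12 genes past 1.5-fold on the COL1 side against 2 in HR-negative cells.

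Basal-like cells of COL1 had less transcript of basal keratins and more of luminal genes. Krt5 was at 548 and 1015 CPM (1.85-fold lower, 1.74 to 1.97) and Krt14 at 1123 and 2094 (1.87-fold lower, 1.79 to 1.95). The luminal keratin Krt18 was at 379.7 and 216 CPM (1.76-fold, 1.62 to 1.91) and its partner Krt8 at 307 and 232 (1.32-fold, 1.21 to 1.45). As lists, 2 of 12 basal markers were lower and 0 higher, 5 of 8 pan-luminal markers higher and 0 lower, and of HR-negative and HR-positive markers 6 of 10 and 6 of 10 higher and 0 lower. Their summed levels were 9131 and 11198 CPM for basal markers, 1652 and 1072 for pan-luminal, 7065 and 4624 for HR-negative and 503.7 and 422 for HR-positive markers. Fibroblast-like cells, which should lack them, held 993 and 1969 CPM of the pan-luminal markers, and both cultures shared the free RNA of 1 channel. The part of RNA from other cells in the luminal values of basal-like cells was not tested. Genes of the acute phase and innate secretion, among them the Saa1 and Saa2 that led HR-negative cells, were higher for 7 of 14 and lower for 0, from the protease inhibitor-like Wfdc2 (214 and 99.98 CPM) and Wfdc18 (264 and 157 CPM) to Saa3 (7.99 and 9.75 CPM) and Lrg1 (23.5 and 31.5 CPM). Median depth was 6984 and 8679 UMIs and the median mitochondrial share 3.26% and 4.18% in this class.

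The other genes furthest apart in basal-like cells act on growth factors, retinoids and matrix. Hpgd, which inactivates prostaglandins, was at 43.2 and 285 CPM (6.60-fold lower, 5.36 to 8.22). Igfbp3 at 109 and 320.3 CPM (2.95-fold lower, 2.58 to 3.39) and Igfbp5 at 2699.6 and 5377 (1.99-fold lower, 1.94 to 2.05) encode binding proteins of insulin-like growth factors. Cyp26b1, which breaks down retinoic acid, was at 17.9 and 51.4 CPM (2.88-fold lower, 2.06 to 4.13), Has2, a hyaluronan synthase, at 29.6 and 70.0 (2.36-fold lower, 1.82 to 3.12), and Sostdc1, a secreted antagonist of BMP and Wnt signals, at 169 and 335 (1.99-fold lower, 1.78 to 2.22). On the COL1 side stood Espn, which bundles actin, at 95.4 and 20.5 CPM (4.65-fold, 3.77 to 5.76), and Cdkn1a, the cell cycle inhibitor p21, at 87.9 and 20.1 (4.37-fold, 3.52 to 5.43). Sparcl1, a matricellular gene, was at 63.9 and 12.4 CPM (5.15-fold, 3.94 to 6.75), and 10 cells held 69.9% of its COL1 UMIs.

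Among signalling lists of the basal-like cells, Wnt genes were lower for 5 of 18 and higher for 2. The ends were Sostdc1, above, and Lgr6, a stem cell receptor of R-spondin, at 57.8 and 110.5 CPM (1.91-fold lower, 1.58 to 2.33), and on the COL1 side the ligand genes Wnt6 at 29.6 and 11.8 and Wnt4 at 15 and 8.99. Cholesterol synthesis genes were lower for 9 of 17 and higher for 1, at low levels that ran from Cyp51 at 9.87 and 25.1 CPM and Idi1 at 4.70 and 15.6 to Mvk at 16.9 and 14.3 and Stard4 at 6.11 and 3.54. Targets of YAP and TEAD, which respond to mechanical load in many cells, were higher for 7 of 20 and lower for 0, with a median of 0.24 that was 0.06 under HTODemux. Crim1 at 139 and 71.8 CPM (1.94-fold, 1.68 to 2.23) and Tgfb2 at 15.5 and 4.30 were highest, and Fjx1 at 27.3 and 29.5 and Myof at 56.9 and 62.5 lowest. The targets most often read, Ccn1 at 530.0 and 445 CPM and Ccn2 at 489 and 509, did not reach 1.5-fold.

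HR-positive luminal-like cells of STIFF carried more kallikrein, Gpx3 and defensin transcript. Klk1b27 was at 25.0 and 354 CPM (14.2-fold lower, 12.2 to 16.6), with 90.2% of its COL1 UMIs in 10 cells, and Klk1 at 28.7 and 107 (3.71-fold lower, 3.20 to 4.31), with 100%. All 4 measured kallikreins were lower, though these genes have near-identical copies among which counting can split reads, so single members are uncertain. Gpx3 was at 328 and 1501 CPM (4.58-fold lower, 4.39 to 4.78) and Defb14 at 37.8 and 172 (4.55-fold lower, 4.01 to 5.18). Ptn was at 131 and 401 CPM (3.07-fold lower, 2.87 to 3.29), and Tnxb, a tenascin of the matrix, at 33.9 and 114 (3.35-fold lower, 2.93 to 3.84). On the COL1 side, beside Ndrg1 and Ero1l, stood the metallothioneins, which bind zinc and copper, with Mt1 at 2367 and 1199 CPM (1.97-fold, 1.94 to 2.01) and Mt2 at 499.7 and 219 (2.28-fold, 2.18 to 2.39). Ffar4, a receptor of long-chain fatty acids, was at 267 and 122 CPM (2.2-fold, 2.07 to 2.33) and Gja1, the gap junction protein connexin 43, at 195 and 89.9 (2.17-fold, 2.02 to 2.33).

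The clusters of this class differed in these genes. Cluster 4 held 310 COL1 and 1138 STIFF cells, and cluster 11 held 223 and 436. Within cluster 4 all 12 genes stayed past 1.5-fold in the same direction, with log2 ratios of -3.41 for Klk1b27, -2.19 for Gpx3 and 1.85 for Ndrg1. Within cluster 11 Klk1b27 was at -0.04, Tnxb at -0.17, Gpx3 at -0.37, Defb14 at -0.56 and Ffar4 at 0.53. With the 10 CPM added to each side these are short of 1.5-fold. Ptn at -1.71, Klk1 at -1.05, Ndrg1 at 0.86, Ero1l at 0.59, Mt2 at 0.70, Gja1 at 0.82 and Mt1 at 0.74 stayed past it there. Klk1b27 and Defb14 are among the genes that define cluster 4, so its cells were in part chosen on them. Of 11 measured HR-positive markers 1 was higher and 0 lower, and Krt8, at 3078 and 4066 CPM, and Krt18, at 3779 and 4360.3, did not reach 1.5-fold.

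In HR-negative luminal-like cells the numbers of genes past 1.5-fold, given above, moved with the tag caller and the weighting of cells. Under HTODemux 280 were higher and 578 lower, and by the mean of per-cell CPM 475 and 393. Sparcl1 was the highest gene, at 313 and 148 CPM (2.11-fold, 1.98 to 2.26), and was also among the 6 highest in basal-like cells and cluster 7. Ifi27l2a, an interferon-induced gene, was at 171 and 84.9 CPM (2.01-fold, 1.84 to 2.2) and Hbegf, a ligand of the EGF receptor, at 91.9 and 48.7 (1.89-fold, 1.67 to 2.13), and Ddit4 (above), Hrct1 at 85.6 and 44.6 and the cytochrome P450 gene Cyp1b1 at 56.7 and 34.5 completed the 6. On the STIFF side stood Cst3, the protease inhibitor cystatin C, at 305 and 589.8 CPM (1.93-fold lower, 1.83 to 2.05), Pdzk1ip1 at 98.6 and 197 (1.99-fold lower, 1.80 to 2.21), the peptide gene Cck at 20.8 and 53.3 (2.57-fold lower, 2.07 to 3.21), and Pdlim3 at 116 and 195. Apod, a lipocalin, was at 17.8 and 61.7 CPM (3.46-fold lower, 2.75 to 4.41), but 97.5% of its COL1 UMIs came from 10 cells and its log2 ratio turned from -1.37 to 0.16 under HTODemux. That caller also brought the log2 ratios, with 10 CPM added to each side, to 0.53 for Hbegf and -0.51 for Cst3. On that measure both are short of 1.5-fold. With cells weighted equally Ifi27l2a was at 0.53. Pcp4, a leading gene of the HR-positive clusters 4 and 11, was also among the 6 lowest, at 123 and 207 CPM, but basal-like cells, the lowest other class, held 229 and 181 CPM, so it is read as background. Its log2 ratio of -0.70 went to -0.47 with cells weighted equally and to -0.29 with both pools clustered together. Milk protein genes were lower for 3 of 12 and higher for 0, from Wfdc18 at 3091 and 4673 CPM and Lalba at 7.45 and 15.3 to Plin2, of milk fat droplets, at 169 and 157 and Muc1 at 112 and 99.99. The progenitor genes Elf5, at 340.0 and 344 CPM, and Kit, at 142 and 159.5, did not reach 1.5-fold.

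Fibroblast-like cells of STIFF carried more acute phase, Ccl2, Cxcl5, interferon-induced and cell cycle transcript. Saa3, a serum amyloid A, was at 30.5 and 1202 CPM (39.3-fold lower, 31.2 to 50.2), and 10 cells held 74.0% of the STIFF UMIs. Ccl2, which attracts monocytes, was at 259 and 1062 CPM (4.09-fold lower, 3.77 to 4.45) and Cxcl5, which attracts neutrophils, at 4.18 and 96.9 (23.2-fold lower, 12.5 to 48.6). Saa1 was at 62.8 and 288 CPM and Clu, a secreted chaperone, at 56.5 and 261. Cxcl3 had 3 and 383 UMIs, and without the 8% of cells with the highest doublet score its log2 ratio went from -2.7 to -0.03 and that of Saa1 from -2.03 to -0.76. Of 13 acute phase genes 12 were lower and 0 higher, the least so Lbp at 66.1 and 90.02 CPM and Slpi at 51.5 and 84.1. The list's median was -0.95, and -0.74 without the cells of highest doublet score.

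Cell cycle genes of fibroblast-like cells were lower for 18 of 20 of the G2 and M phases and for 15 of 19 of the S phase, and higher for 0. Top2a, the topoisomerase of dividing cells, was at 31.4 and 74.6 CPM (2.38-fold lower, 1.86 to 3.07) and Birc5 at 43.9 and 99.9, against Ccnb2 at 35.6 and 33.7 and Cenpa at 72.8 and 82.0 at the other end. Rrm2, a subunit of ribonucleotide reductase, was at 14.6 and 41.8 CPM (2.85-fold lower, 2.0 to 4.19) and the helicase subunit Mcm6 at 7.11 and 25.0, against Ung at 4.60 and 5.43 and Rrm1 at 46.0 and 56.4. Interferon-induced genes were lower for 12 of 21 and higher for 1. Isg15 at 83.7 and 194 CPM (2.32-fold lower, 2.0 to 2.71) and Irf7 at 31.8 and 72.9 were lowest, and Isg20 at 61.9 and 32.9 and Ifit1 at 33.1 and 27.8 highest.

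On the COL1 side of fibroblast-like cells stood Mmp13, at 689 and 164 CPM (4.21-fold, 3.89 to 4.56), with 89.6% of the COL1 and 76.6% of the STIFF UMIs in 10 cells. The long non-coding RNA gene Meg3 was at 195 and 46.1 CPM (4.23-fold, 3.64 to 4.93), Rbp4, which carries retinol, at 120.1 and 30.9 (3.88-fold, 3.22 to 4.69), C1qtnf3 at 216 and 62.0 and Abi3bp at 77.8 and 18.1. The collagen genes themselves differed little, with Col1a1 at 5075 and 4655 CPM (1.09-fold, 1.07 to 1.11) and Col1a2 at 4981 and 5109 (0.975-fold, 0.955 to 0.996). Of 21 fibrillar and interstitial matrix genes 2 were higher, the elastin gene Eln at 166 and 73.1 CPM and lumican (Lum) at 862 and 505, and 0 lower, with Thbs1 at 341 and 431 and Col6a3 at 821 and 1024 at that end. Matrix proteases and inhibitors were higher for 5 of 24 and lower for 2, with Mmp13 highest, and Timp3 at 429 and 867 and Serpine2 at 349 and 497 lowest. Ccn1, at 747 and 444 CPM (1.68-fold, 1.58 to 1.79), and Ccn2, at 563 and 362 (1.55-fold, 1.45 to 1.66), passed 1.5-fold here, while 4 of 21 YAP and TEAD targets were higher and 3 lower, down to Crim1 at 18.8 and 28.3 and Tgfb2 at 41.8 and 77.7.

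Markers of other cells moved with these differences. In fibroblast-like cells 7 of 8 pan-luminal markers were lower in COL1 (993 and 1969 CPM in sum) and 8 of 9 measured macrophage markers higher (571 and 294 CPM). Of 7 pericyte markers 2 were higher, Rgs5 at 159 and 66.2 CPM and Higd1b, and 2 lower, Des at 61.5 and 123 and Mcam, and of 9 fibroblast markers 2 were higher and 0 lower. Median depth was 12318 and 17270 UMIs. The part of these cells and of depth in the differences of this class was not tested.

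Macrophage-like cells of COL1 carried more Pf4, Mmp9, Saa3, F13a1 and Arg1 transcript, and those of STIFF more epithelial transcript. Pf4 was at 1449 and 367 CPM (3.94-fold, 3.73 to 4.17), and after thinning 71.3% of COL1 and 36.0% of STIFF cells held a Pf4 UMI (93.7% and 77.9% unthinned, at median depths of 13027 and 18087 UMIs), against 0.451% and 0.383% in the classes lowest in it. Mmp9, a gelatinase, was at 165 and 29.3 CPM (5.62-fold, 4.67 to 6.78), the interferon-induced Ifitm1 at 132 and 20.1 (6.56-fold, 5.26 to 8.21) and Saa3 at 1559 and 207 (7.52-fold, 7.04 to 8.04). Rarres2 at 159 and 3.02 CPM and Sprr2f at 228 and 33.0, leading genes of fibroblast-like and HR-positive cells, had 100% and 99.4% of their COL1 UMIs in 10 cells. Of 19 measured macrophage activation genes 6 were higher and 4 lower. F13a1, a coagulation factor subunit, at 524 and 185 CPM (2.83-fold, 2.61 to 3.08) and Arg1, arginase, at 1395 and 672 (2.08-fold, 1.98 to 2.18) were highest, and Lpl, the lipoprotein lipase, at 28.7 and 81.4 (2.84-fold lower, 2.19 to 3.73) and Chil3, with 0 UMIs in COL1, which allows up to 3 counts, and 61 in STIFF, lowest. Interferon-induced genes were lower for 11 of 21 and higher for 0, from Isg20 at 14.3 and 39.8 CPM and Rsad2 at 6.08 and 18.8 to Ifit3 at 6.08 and 4.97 and Ifitm3 at 1720.5 and 1496.

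Each of the 6 lowest genes of macrophage-like cells had its highest level among the 5 classes in a luminal class, in both cultures. They were Klk1b27 (2.17 and 99.7 CPM, 45.9-fold lower, 19.5 to 142), Cited1 (10.9 and 83.3 CPM), Ptn (9.56 and 69.5 CPM), the casein gene Csn1s1 (31.3 and 134 CPM), Wfdc18 (174 and 578 CPM) and Gpx3 (192 and 584 CPM, 3.03-fold lower, 2.75 to 3.36). Csn1s1 went from a log2 ratio of -1.81 to -0.19 without the cells of highest doublet score. Of the pan-luminal markers 7 of 8 were lower (2835 and 6563 CPM in sum), and of 11 measured macrophage markers 2 were higher, Mrc1 and Adgre1, and 0 lower (46176 and 36905 CPM). The part of epithelial RNA in these genes of this class was not tested. The median log2 ratio of all measured genes was -0.10 here. With trimmed mean of M-values scaling 878 genes in place of 555 were higher and 1149 in place of 1630 lower.

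**Figure D3:**
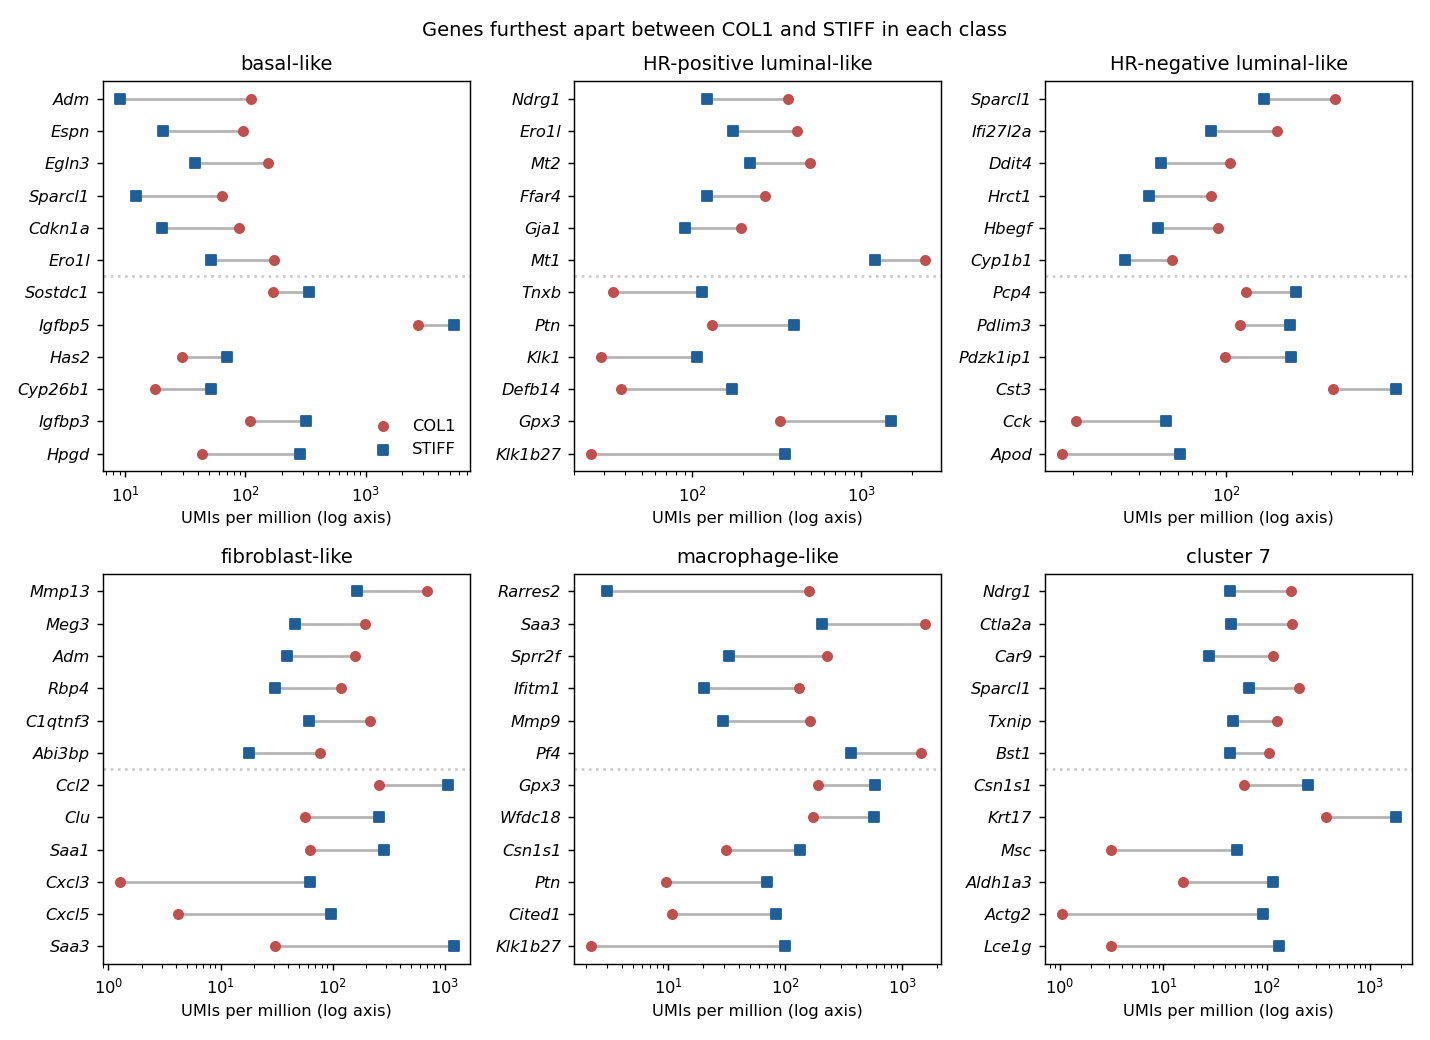
Level in CPM (log axis) in COL1 and STIFF of the 6 highest and 6 lowest genes of each class by log2 ratio, 1 culture each. Adm in basal-like cells stands at 111 against 8.99, Klk1b27 in HR-positive cells at 25.0 against 354, and Saa3 at 30.5 against 1202 in fibroblast-like cells but 1559 against 207 in macrophage-like cells.

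Cluster 7 had less contractile and keratin transcript in COL1. Of 18 actin and contractile genes 10 were lower and 0 higher, from the smooth muscle actin Actg2, with 1 and 359 UMIs, and Cnn1, calponin, at 25.0 and 99 CPM to Cald1 at 1059 and 1278 and Myl6 at 2125 and 2489. All 9 measured basal and luminal keratins were lower, in the order of their log2 ratios from Krt17 at 373 and 1778 CPM (4.76-fold lower, 4.28 to 5.31) and Krt5 at 20.8 and 93.1 to Krt14 at 846 and 1337 and Krt15 at 1.04 and 6.14, with Krt8 at 1738 and 3653 and Krt18 at 2279 and 3977 between them. Beside Ndrg1 and Car9 the genes highest in COL1 were Ctla2a at 175 and 45.3 CPM (3.86-fold, 3.11 to 4.79), Sparcl1 at 207 and 68.3, Txnip, which binds thioredoxin, at 125 and 47.3 (against 119 and 107 in the class lowest in it) and Bst1 at 106 and 44.5. Lowest, beside Actg2 and Krt17, were Lce1g, of the cornified envelope, with 3 and 520 UMIs, Msc with 3 and 204, Aldh1a3, a retinaldehyde dehydrogenase of luminal progenitors, at 15.6 and 115 CPM, and Csn1s1 at 60.3 and 249.9. In STIFF 10 cells held 90% of the Lce1g and 95.3% of the Actg2 UMIs. Of 12 basal markers 10 were lower and 1 higher, 2471 and 6557 CPM in sum, and the median depth was 8837 and 16459 UMIs. Krt17, Krt14, Tagln, Acta2, Myl9 and Lce1g are among the genes that lead cluster 7, so its cells were in part chosen on them. Whether the cluster holds the same mix of cells in both cultures was not tested.

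**Figure D4:**
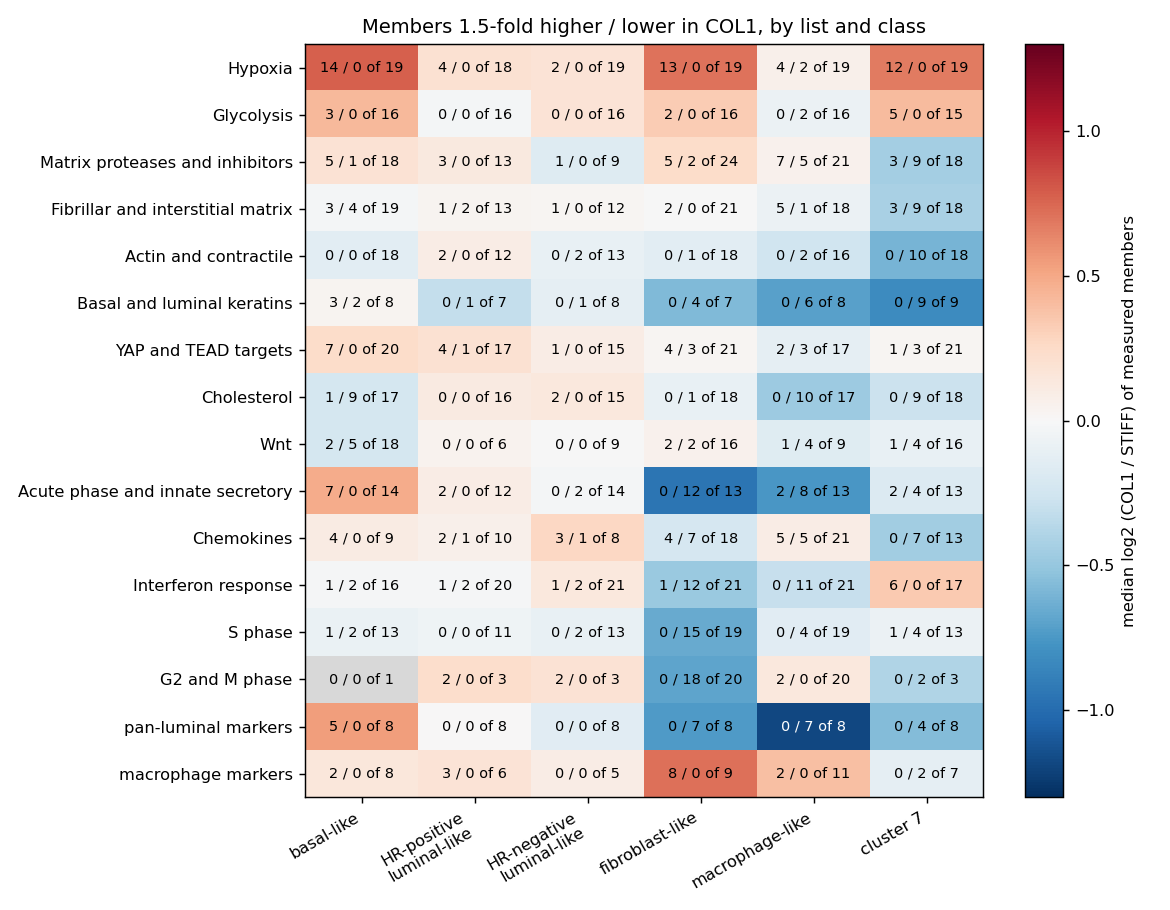
Counts of members higher / lower in COL1 by 1.5-fold or more, and of members measured, for the gene lists (lines) in 5 classes and cluster 7 (columns), with the median log2 ratio as colour. Hypoxia genes lie on the COL1 side with 14, 13 and 12 of 19 in basal-like, fibroblast-like and cluster 7 cells, and acute phase genes run from 7 of 14 higher in basal-like cells to 12 of 13 lower in fibroblast-like cells.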

How the data were processed

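Gene and hashtag counts of 1 droplet channel, COL1 and STIFF cells pooled, were deposited by the authors as raw whole-number UMI counts per barcode. The file headers name Cell Ranger 5.0.0. The genome build was mm10 per the submitters' processing notes, which also name Seurat 4.2.0 without a role, and the labels' protocols name more than 1 chemistry version. The rule by which barcodes were called cells is not given in the sources used here.

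Barcodes were filtered and assigned by the stated tag rule. Barcodes without a double tag were clustered blind to the tags with scanpy 1.11.5 (2000 variable genes, 30 principal components, 15 neighbours, Leiden resolution 0.5) and named from marker lists. Scrublet marked 0 cells and so was not used as a caller, but clusters with a median score over 0.1 stayed unnamed, and the removal of the top 8% of scores is an alternative. UMIs were summed per culture and class and divided by their total (CPM). Ratios carry exact conditional binomial 95% intervals, and shares exact Clopper-Pearson ones. The depth was 23372235 UMIs in COL1 and 85143520 in STIFF, and a count of 0 allows up to 3. For shares of cells with a UMI, cells were thinned to 2000 UMIs and compared with the class lowest in the gene. The scripts were tested on simulated sums of UMIs, which held no spread between cells.

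Genes named are, among those with at least 200 UMIs and 50 CPM in 1 culture, the 12 highest and 12 lowest log2 ratios over all cells and 6 and 6 per class (mitochondrial, ribosomal protein, haemoglobin, Xist, Y-linked, immunoglobulin genes and unnamed models left out), the 2 highest and 2 lowest members of each list described, the collagen receptors, Krt5, Krt14, Krt8, Krt18, Ccn1 and Ccn2. Other hypoxia genes and Mrc1, Adgre1, Rgs5, Higd1b, Des, Mcam, Elf5, Kit, Col1a1 and Col1a2 were named after their values were seen. Some genes that this rule names are not reported here. The members and lists were chosen with earlier results of these data known. Alternatives varied the tag caller (HTODemux in Seurat 5.3.0), filters, scaling, pseudocount and clustering.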

Additional observations from a re-analysis of the deposited data

Results flagged for a closer look

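In 12 named genes the classes stood on opposite sides past 1.5-fold, and none of these differences between classes was tested, since each rests on 1 culture per condition. All values are log2 ratios of COL1 over STIFF. Saa3 was at 2.85 in macrophage-like and -4.90 in fibroblast-like cells. Ccl2 was at 0.75 in macrophage-like and -1.99 in fibroblast-like cells, and Mgp, a matrix Gla protein, at 1.67 in macrophage-like, -0.79 in basal-like and -1.11 in fibroblast-like cells. Mmp13 was at 2.01 in fibroblast-like and -0.62 in macrophage-like cells. Clu was at 1.49 in basal-like and -2.02 in fibroblast-like cells, and Cyp26b1 at 1.26 in fibroblast-like and -1.14 in basal-like cells. Cck was at 1.55 in fibroblast-like and -1.04 in HR-negative cells, and Cst3 at 0.82 in basal-like and -0.93 in HR-negative cells. Over all cells 10 cells held 61.5% of the COL1 UMIs of Cck. Hbegf was at 0.80 in HR-negative and -0.64 in fibroblast-like cells. Ifi27l2a was at 0.93 in HR-negative, -0.60 in basal-like and -0.91 in fibroblast-like cells. Sprr2f was at 2.47 in macrophage-like and -0.94 in HR-positive cells. Wfdc18 was at 0.71 in basal-like, -0.59 in HR-negative, -0.70 in fibroblast-like and -1.68 in macrophage-like cells. In HR-negative cells Hbegf went to 0.53 and Cst3 to -0.51 under HTODemux, and Ifi27l2a to 0.53 with cells weighted equally. With 10 CPM added to each side these are short of 1.5-fold. Most COL1 UMIs of Sprr2f in macrophage-like and of Mmp13 in fibroblast-like cells lay in 10 cells. So did most STIFF UMIs of Saa3 in fibroblast-like cells.

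A further hashtag, which no culture was assigned, was read beside the 2 used here. It had at least 10 counts in 223 of 9568 kept barcodes (2.33%), and its highest count was 481. Of these barcodes 128 were among the 1780 COL1 cells, 4 among the 5381 STIFF cells and 91 among the 420 double ones. No alternative left them out, and their part in the COL1 values was not tested. The sum of this hashtag was 12756 counts, against 3344667 and 13818617 for the COL1 and STIFF tags.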

How the results depend on the processing

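No paired analysis was possible because each condition was 1 culture. Of 1140 values of named genes under the alternatives 982 stayed within their interval, 156 moved and 2 turned around, both under HTODemux, Mgp over all cells (0.21) and Apod in HR-negative cells (0.16). Of 3585 list medians 1 turned around, that of defensins and antimicrobial genes in fibroblast-like cells without the top 8% of doublet scores (0.10). Of 180 counts of genes past 1.5-fold 143 were within 1.5 times. At a minimum of 20 CPM, which tests fewer genes, the counts higher and lower were 160 and 65 over all cells, 321 and 233 in basal-like, 127 and 84 in HR-positive, 36 and 42 in HR-negative, 279 and 393 in fibroblast-like, 199 and 583 in macrophage-like cells and 391 and 514 in cluster 7. With no filter on low values they were 2626 and 1522, 2452 and 1466, 1844 and 1434, 1638 and 1285, 2083 and 2311, 1794 and 2798, and 2117 higher in cluster 7. HTODemux gave 1167 lower in basal-like and 280 and 578 in HR-negative cells, the mean of per-cell CPM 475 and 393 in HR-negative cells, the fixed class mix 191 higher over all cells and TMM scaling 878 higher in macrophage-like cells. Cluster 4 alone gave 526 and 432 and cluster 11 alone 434 lower. The share in COL1 over that in STIFF was 1.03 for basal-like cells at a tag ratio of 4, and under HTODemux 2.41 for basal-like, 0.797 for HR-positive, 1.66 for HR-negative and 0.967 for macrophage-like cells. For the tag caller, scaling and weighting the cause was not tested. Runs of cluster 4 or 11 alone, of named classes only and without low-depth clusters were chosen after seeing the data. With 1 culture a side, depth limits only the counting error.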

Other observations

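Lists not described above are given as values, and all were chosen after their values were seen. Over all measured genes 3.45% were higher and 2.84% lower in HR-positive cells, and 1.81% and 2.55% in HR-negative cells. In HR-positive cells genes of TGF-beta and BMP signals were higher for 4 of 14 and lower for 0, from Id2, an inhibitor of helix-loop-helix factors (64.3 and 36.0 CPM), and the inhibin chain gene Inhbb (106 and 62.4 CPM) to the receptor gene Tgfbr1 (7.51 and 9.06 CPM) and Id3 (1009.6 and 1277 CPM). YAP and TEAD targets were higher for 4 of 17 there and lower for 1, from Crim1 (95.6 and 46.1 CPM) and Nt5e (8.09 and 2.31 CPM) to F3 (238 and 291 CPM) and Rbms3 (3.47 and 11.8 CPM). In HR-negative cells chemokine genes were higher for 3 of 8 and lower for 1, from Ccl5 (24.4 and 4.56 CPM) and Cxcl10 (8.80 and 1.99 CPM) to Cx3cl1 (38.8 and 40.2 CPM) and Ccl2 (7.67 and 13.7 CPM).

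In macrophage-like cells cholesterol synthesis genes were lower for 10 of 17 and higher for 0, from Fdps (38.7 and 78.7 CPM) to Sc5d (15.6 and 18.7 CPM) and Mvk (12.2 and 12.4 CPM). Over all genes measured in this class 16.2% were lower and 5.50% higher. In cluster 7 interferon-induced genes were higher for 6 of 17 and lower for 0, whereas in fibroblast-like and macrophage-like cells 12 and 11 of 21 were lower, and the difference between these groups was not tested. Isg20 at 49.9 and 24.8 CPM and Zbp1, a sensor of nucleic acids, at 83.2 and 44.5 were highest in cluster 7, and Ifi35, at 54.1 and 64.0, stood near the low end. Its matrix genes were lower for 9 of 18 and higher for 3, with fibronectin (Fn1) at 275 and 752 CPM and tenascin C (Tnc) at 213 and 519 lowest and Postn at 1317 and 811 and Thbs2 at 55.1 and 36.3 highest. Fn1 and Tnc are among the genes that lead this cluster.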
